A study of Drosophila melanogaster with 7 samples.

Results

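Gene expression in eye imaginal discs of sevd2 larvae was measured against a common reference of pooled w1118 discs. The genes described are the 3924 with a value in both sevd2 RNA extractions, of 5971 genes with any value in the series, whether or not they had a value in the other genotype. In all 7 2-colour arrays were hybridised, 4 for sevd2 and 3 for sevS11. The sevd2 discs carried the genotype sevd2;+;+ and the reference discs w1118;+;+. Both came from larvae of the third instar staged with bromophenol blue, and the labels give the background of both as w1118. The allele sevd2 is known to abolish sevenless (sev) function, and sevS11 expresses an activated receptor. The sevS11 arrays, from discs labelled with the strain sevS11 at the same stage and in the same background, enter only where stated.

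Sevenless is a receptor tyrosine kinase on cells of the developing ommatidium, the unit of the compound eye. Its ligand Boss, on the neighbouring R8 photoreceptor, activates it in the R7 precursor, and the signal passes through the adaptor Drk, the exchange factor Sos, Ras and the MAP kinase cascade. Without the receptor the R7 precursor becomes a cone cell in place of a photoreceptor. Only a small share of disc cells use the receptor in this way. Eye discs also hold undifferentiated cells ahead of the morphogenetic furrow, the overlying peripodial layer, glia and attached blood cells.

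Arrays 1 and 2 held extraction 1, and arrays 3 and 4 held extraction 2. The mutant RNA carried Cy5 on arrays 1 and 3 and Cy3 on arrays 2 and 4. Each sevd2 array had a value for between 4701 and 5691 probes, and precision is limited by the number of arrays. Ratios are log2 values, likely of mutant over reference, a direction inferred from sev and so not checked by it. The number after ± is the standard error (SE) from limma over n = 2 extractions. The reference was 1 pool, so the tests leave out the spread of the control. One label field names that pool as wing discs, whereas the source name, the tissue field and the extraction protocol name it as eye discs.

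Against the reference, 479 genes were called in sevd2 discs, 245 of them higher and 234 lower, which is 12.2% of the 3924 tested (limma, adjusted p under 0.05). The background was 6.24% for higher and 5.96% for lower calls. Counts of calls within a gene list below are to be read beside these shares, and no list was tested as a set. Most differences were small. The median absolute log2 ratio of the called genes was 0.365, 118 exceeded 0.5 in size (44 higher, 74 lower) and 17 exceeded 1 (6 higher, 11 lower). No other tested gene exceeded 1, and the 5th and 95th percentiles of all tested genes were -0.307 and 0.296. All 339 called genes with a value on all 4 arrays had 1 sign on every array. Among called genes on fewer arrays the signs differed only for lmgB and mTTF. The calls rest on these same arrays, so agreement in sign is no separate support for them. The spread of 2 extractions has 1 residual degree of freedom. When it was shared with the sevS11 extractions the count fell to 17 genes (6 higher, 11 lower, 0.433%), and without array 2 it was 116, without array 1 271.

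**Figure D1:**
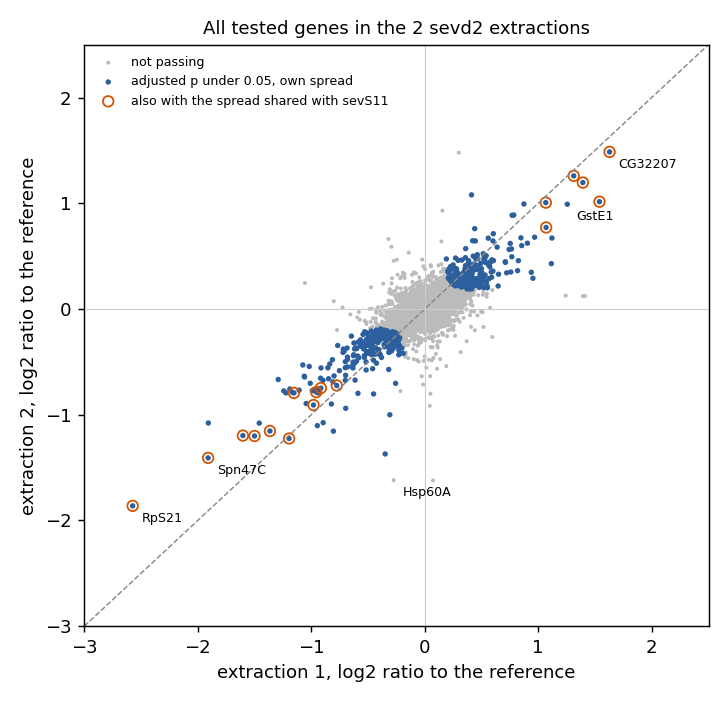
Log2 ratio to the reference of every tested gene in extraction 1 (horizontal) and extraction 2 (vertical) of sevd2, with called genes in blue and those also called with the shared spread circled. The called genes lie in the lower left and upper right, where a call made from these same values places them. The correlation across all genes is 0.722.

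The 17 genes that passed with either spread had ratios between -2.22 and 1.56. Of these, 11 were lower: RpS21, Spn47C, CG18853, Idgf6, otk, gammaTry, PPO2, scyl, CG6654, regucalcin and CG12054. The other 6 were higher: CG32207, CG18294, Obp83g, Syp, CG17681 and ana. Calls of all other genes named below ended with the shared spread.

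The sev transcript itself was only slightly lower. Its log2 ratio was -0.46, -0.17 and -0.41 on arrays 1 to 3, with no value on array 4. All 3 values lay below 0, and the value nearest 0 came from the Cy3 array. The mean of -0.36 ± 0.06 (limma, adjusted p = 0.0176) was 77.8% of the reference in the likely direction. With the ratios turned, sev would be 1.29-fold above the reference, and higher and lower would change places for every gene. The call ended without array 1 (-0.29, adjusted p = 0.0704) and without array 2 (-0.43, adjusted p = 0.0511), and the limma adjusted p was 0.886 with the shared spread. Where the probe lies relative to the lesion is not known here. Of the 13 genes tested within 20 genes of sev on the X chromosome, none was called. The nearest to a large change was Hsp60A, which encodes a mitochondrial chaperonin and lies 5 genes from sev. Its ratios of -0.40, -0.15, -2.25 and -0.98 were far lower in extraction 2, and their mean of -0.95 ± 0.27 did not pass (limma, adjusted p = 0.0711).

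Downstream of the receptor no gene of the pathway passed. Besides sev, 12 members of the Sevenless, Ras and MAPK list were tested and lay between -0.17 and 0.25. The scaffold gene cnk had the highest value, 0.30, 0.39, 0.07 and 0.25 on arrays 1 to 4, for a mean of 0.25 ± 0.07 (limma, adjusted p = 0.0673). The docking protein gene dos had a mean of -0.17 ± 0.06 and the phosphatase gene csw one of 0.17 ± 0.07, each with both signs among its arrays. The R7 fate genes sina and phyl, whose products act together to remove the repressor Tramtrack, stood at 0.16 ± 0.08 and 0.12 ± 0.08 and did not pass (limma, adjusted p = 0.218 and 0.359). The ligand gene boss, Ras85D, Raf and rl were not tested.

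Among 12 tested genes of EGF receptor signalling, the related pathway that recruits the other photoreceptors, 1 rose. This was S (Star), needed to export the ligand Spitz, with 0.48, 0.50, 0.31 and 0.55 on the 4 arrays. All 4 values were above 0, with both Cy3 values above both Cy5 values, and they averaged 0.46 ± 0.06 (limma, adjusted p = 0.00745). The ligand gene spi was at 0.14 ± 0.06 and Egfr at 0.20 ± 0.07, and edl, an antagonist of the ETS repressor Yan and of Pointed, was at -0.30 ± 0.09. None of the 3 passed (limma, adjusted p between 0.0701 and 0.161).

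The photoreceptor and accessory cell genes that could be tested moved little. None of 6 tested fate factors passed, with klu at 0.21 ± 0.06 and oc at 0.24 ± 0.06, and neither did any of 6 cone and pigment cell genes, which lay between 0.03 and 0.22. Of 7 neuronal differentiation genes, 2 fell. Appl, the fly amyloid precursor protein gene expressed in neurons, had ratios of -0.47, -0.16, -0.75 and -0.39, and chp, which encodes the photoreceptor adhesion protein Chaoptin, had -0.46, -0.15, -0.30 and -0.16. The Cy5 arrays gave the lower values of each pair for both genes. Their means were -0.44 ± 0.08 for Appl and -0.27 ± 0.06 for chp (limma, adjusted p = 0.0189 and 0.0394). The Appl call ended without array 1 and the chp call without array 1, 2 or 3 (limma, adjusted p between 0.0709 and 0.110). The pan-neuronal gene elav was at -0.15 ± 0.10. Many members of these lists were not tested. They include the fate factors pros, lz, svp, sens and ttk, the cone and pigment cell genes ct and sv, and futsch and ninaE.

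Genes that specify the eye field lay near the reference. Of 10 tested retinal determination genes 1 passed, danr at 0.28 ± 0.07 (limma, adjusted p = 0.0489), and its call ended without array 1, 2 or 4. Of the 10 members 9 lay above 0. The core genes ey, toy, so and Optix were between 0.04 and 0.12, eya was at 0.20 ± 0.06 and dac at 0.32 ± 0.10, and none of these passed. None of 7 wing disc identity genes passed, with values from -0.15 for Doc3 to 0.23 for bs. The defining eye genes thus had values on these arrays, and dac was the tested member of the lists farthest from the pool. The wing genes vg, nub and ap were not tested.

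Notch pathway genes split. Among 14 tested furrow genes and Notch targets, 3 rose and 1 fell. The fall was in E(spl)mbeta-HLH, a bHLH repressor gene of the Enhancer of split complex, with -1.36 and -0.76 in extraction 1 and -0.64 on array 4. Every array with a value was clearly below 0, and the mean was -0.85 ± 0.10 (limma, adjusted p = 0.00562). The rises were in 3 genes of the Bearded family, whose small products restrain Notch ligand signalling. Tom was at 0.41, 0.38, 0.47 and 0.37 and Brd at 0.36, 0.38 and 0.41 on arrays 2 to 4, so both were nearly even across dyes and extractions. Their means were 0.41 ± 0.06 and 0.38 ± 0.06 (limma, adjusted p = 0.0101 and 0.0133), and Tom and Brd are adjacent genes on chromosome arm 3L. The third, E(spl)m2-BFM, was at 0.26 ± 0.06. The Tom call ended without array 2 and that of E(spl)m2-BFM without array 1, 2 or 3 (limma, adjusted p between 0.0561 and 0.0954). The other Enhancer of split genes tested lay between -0.03 and 0.21, and ato, the R8 proneural gene, was at 0.03.

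Blood cell genes formed the list with the lowest median, which would be the highest if the ratios ran the other way. Of 10 tested hemocyte genes 7 fell and none rose, and the median ratio was -0.616 beside 0.009 for all tested genes. The prophenoloxidase genes PPO1 and PPO2 encode enzymes that crystal cells use for melanisation. PPO1 stood at -1.23, -0.86, -1.12 and -0.66 on arrays 1 to 4, and PPO2 at -1.36, -0.94 and -0.79 on arrays 1, 2 and 4. Every value lay well below 0, with the lower of each complete pair on the Cy5 array. Their means were -0.97 ± 0.07 and -0.97 ± 0.09 (limma, adjusted p = 0.00109 and 0.00265), and with the shared spread the limma adjusted p was 0.0508 for PPO1 and 0.0496 for PPO2.

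He, which encodes the hemocyte surface protein Hemese, had ratios of -1.58, -0.90, -0.99 and -0.56. Its highest value, on array 4, was still below all values of the genes that did not pass, and the mean was -1.01 ± 0.11 (limma, adjusted p = 0.00385). The C-type lectin gene lectin-28C had values on the Cy3 arrays alone, -1.46 and -1.08, for a mean of -1.27 ± 0.10 (limma, adjusted p = 0.00136). SPARC and Col4a1 encode a collagen-binding protein and a type IV collagen chain, which hemocytes and fat body secrete into basement membrane. SPARC was at -1.18, -0.61, -0.80 and -0.55 and Col4a1 at -0.61, -0.33, -0.59 and -0.27. Both were lower on Cy5 than on Cy3 arrays, and their means were -0.79 ± 0.07 and -0.45 ± 0.06 (limma, adjusted p = 0.00265 and 0.00796). NimC1, a phagocytosis receptor gene next to He on 2L that was chosen after its value was seen, was at -0.36 ± 0.06. Its values, -0.31 and -0.41, also came from the Cy3 arrays alone.

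Not every marker followed. The scavenger and engulfment receptor genes crq and drpr and the transcription cofactor gene ush were at -0.06, 0.04 and 0.05, and crq and drpr are also used outside blood cells. Hml, eater, Pxn, vkg, PPO3, srp, Sr-CI and lz were not tested. The list's median was -0.893, -0.614, -0.586 and -0.549 on arrays 1 to 4, with 7 members below 0 on each array. No call of PPO1, He, SPARC or Col4a1 ended when an array was left out. The PPO2 call held without array 1 or 2, and without array 4 PPO2 could not be tested. For lectin-28C, with 1 value per extraction, leaving out an array could not test the call. In whole discs fewer cells of a type and less RNA per cell cannot be told apart, and the part of blood cells in the other differences was not tested. Of 6 basement membrane genes, 3 fell, with the laminin gene LanA at -0.30 ± 0.06 beside SPARC and Col4a1. The LanA values were -0.54, -0.04, -0.50 and -0.11 on arrays 1 to 4, so most of its shift lay on the Cy5 arrays. LanB2, trol and Mp lay between -0.07 and 0.03. The LanA call ended without array 1, 2 or 3 (limma, adjusted p between 0.0714 and 0.232).

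**Figure D2:**
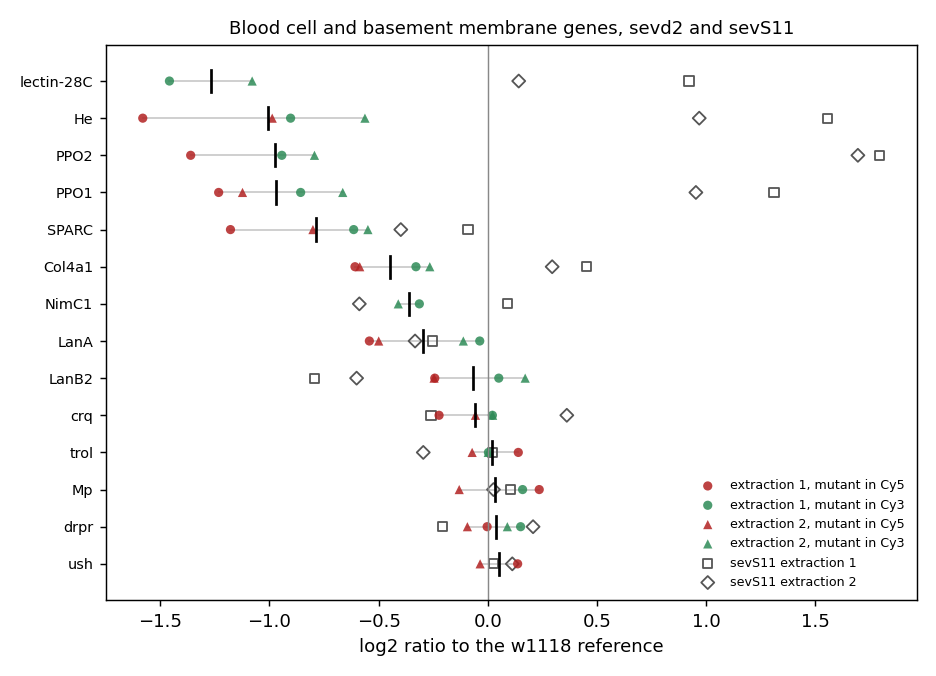
Log2 ratio to the reference of each tested hemocyte and basement membrane gene, with the 4 sevd2 arrays as filled symbols (red, mutant in Cy5; green, mutant in Cy3), their mean as a bar and the 2 sevS11 extractions as open symbols. The sevd2 values of PPO1, PPO2, He and lectin-28C all lie below -0.5 and the sevS11 values all above 0.

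The other tissues that could adhere to discs had few measured markers. The larval serum protein gene Lsp2 of the fat body was at -0.17 ± 0.07 and the salivary gland gene ng4 at -0.21 ± 0.06. None of 4 glial genes passed, with repo, the pan-glial transcription factor gene, at -0.23 ± 0.15. Of 2 muscle genes, the myosin light chain gene Mlc2 fell, with -1.38, -0.64, -0.91 and -0.49 on arrays 1 to 4. All values were low, most so on the Cy5 arrays, and the mean was -0.86 ± 0.08 (limma, adjusted p = 0.003). The muscle actin gene Act87E was at 0.05 ± 0.06. Mhc, Act57B, up and sls were not tested.

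Serpins, inhibitors of serine proteases, held 2 rises and 3 falls among 9 tested. Spn47C had -2.26, -1.56, -1.67 and -1.14 on arrays 1 to 4, every value below -1, and its mean of -1.66 ± 0.12 was 3.16-fold below the reference (limma, adjusted p = 0.00109). Spn43Aa ran the other way, at 1.00, 0.48, 0.67 and 0.46, for a mean of 0.65 ± 0.07 (limma, adjusted p = 0.00359). Its array 1 value was well above the others. Spn42Dd was at 0.58 ± 0.08 and Spn88Ea at -0.34 ± 0.06, and each of these calls ended without array 2 (limma, adjusted p = 0.0647 and 0.0617), that of Spn88Ea also without array 1 (0.0547).

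The trypsin gene gammaTry fell, at -1.34, -1.05, -1.45 and -1.0 on arrays 1 to 4. The arrays differed little, and the mean was -1.21 ± 0.06 (limma, adjusted p = 0.000616). Near-identical trypsin genes lie beside gammaTry, so which copy was measured is uncertain. CG4259 and CG4408, which encode a predicted serine protease and a predicted carboxypeptidase, were at -0.97 ± 0.10 and -0.98 ± 0.07 (limma, adjusted p = 0.00359 and 0.00109).

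Chitinase-like and chitin-binding genes held 5 falls and 2 rises among 23 tested. Idgf6, of the imaginal disc growth factors, which resemble chitinases without the enzyme activity, had -1.82, -1.18, -1.37 and -1.03. All 4 values were below -1 and the mean was -1.35 ± 0.08, 2.55-fold below the reference (limma, adjusted p = 0.00109). Its relative Idgf4 was at -0.46 ± 0.07, the chitinase gene Cht2 at -0.42 ± 0.06 and the cuticle protein gene Cpr49Ac at -0.46 ± 0.07. These 3 calls ended without array 2 (limma, adjusted p between 0.0534 and 0.0628). Gasp, a chitin-binding protein gene of the tracheal lining that is not on this list, had 1.17, 0.48, 0.51 and 0.41, so array 1 stood apart from the others. Its mean was 0.64 ± 0.09 (limma, adjusted p = 0.0101), and without array 2 it was 0.81 and did not pass (adjusted p = 0.0636).

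Of 6 genes for odorant-binding and hormone-binding proteins, small carriers of hydrophobic ligands, 2 rose and 2 fell. Obp83g had 1.70, 1.09, 1.52 and 0.88 on arrays 1 to 4, with both Cy5 values above both Cy3 values. Its mean of 1.29 ± 0.07 was 2.45-fold above the reference (limma, adjusted p = 0.000897). On the same chromosome Gasp lies 3 genes from it. Obp99a was at 0.31 ± 0.07, and Obp56a and Obp56d were at -0.41 ± 0.06 and -0.44 ± 0.06 (limma, adjusted p = 0.0394, 0.0101 and 0.00885). The calls of Obp99a, without array 1, 2 or 3, and Obp56a, without array 2, ended (limma, adjusted p between 0.0505 and 0.108).

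**Figure D3:**
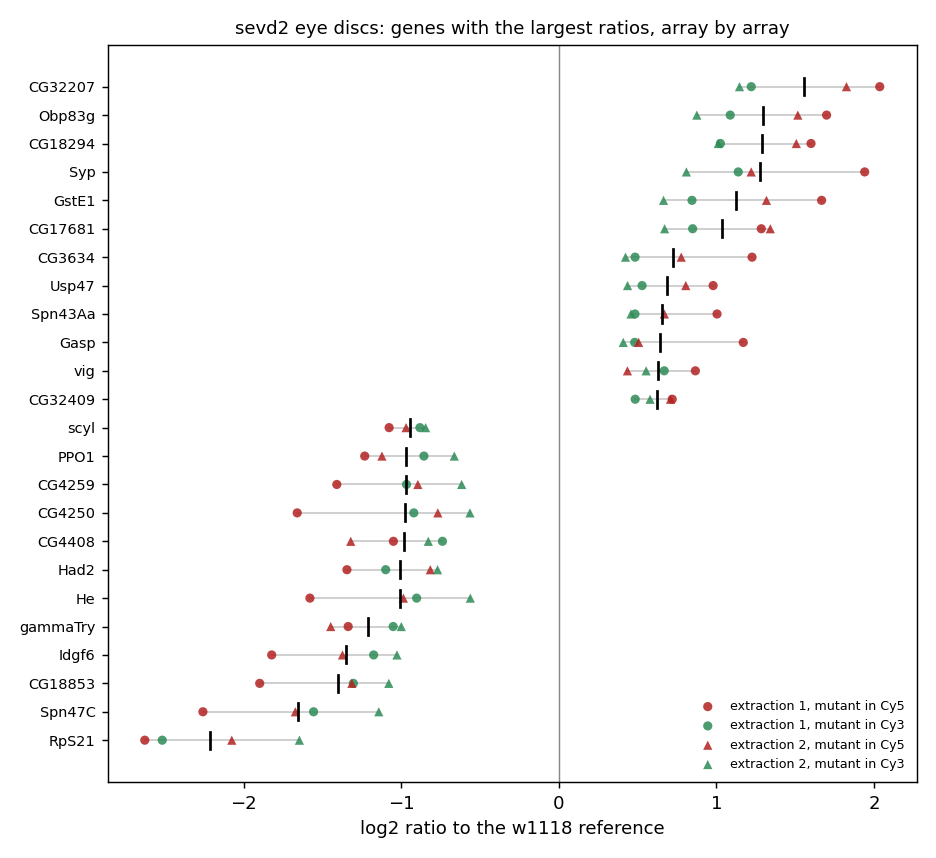
Log2 ratio to the reference on each of the 4 sevd2 arrays for the 12 highest and 12 lowest called genes with a value on all arrays; red marks the mutant in Cy5, green in Cy3, circles extraction 1, triangles extraction 2 and bars the mean. The array 1 value is the highest in 11 of the 12 upper genes. Every gene keeps 1 sign because the genes were chosen for having 1 sign on all 4 arrays.

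The highest ratios belonged to genes of no common list. CG32207 had 2.04, 1.22, 1.82 and 1.15 on arrays 1 to 4 and CG18294 had 1.60, 1.02, 1.51 and 1.01. The Cy5 values exceeded the Cy3 values in both extractions, and all 8 values were above 1. Their means were 1.56 ± 0.07, 2.94-fold above the reference, and 1.29 ± 0.06 (both limma, adjusted p = 0.000616). CG17681 was at 1.04 ± 0.06 (limma, adjusted p = 0.000898).

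Syp, which encodes the RNA-binding protein Syncrip, had a mean of 1.28 ± 0.12 (limma, adjusted p = 0.00265) that joined 2 unlike probes. The first probe gave 0.78, 0.19, 0.13 and 0.08 on arrays 1 to 4 and the second 3.10, 2.09, 2.31 and 1.54. Tested on its own the first, at 0.29 ± 0.10, did not pass and the second, at 2.26 ± 0.16, did (limma, adjusted p = 0.119 and 0.00219). The Syp call therefore rests on the second probe, and which transcripts each detects is not known here. GstE1, a glutathione S-transferase gene of detoxification, had 1.67, 0.84, 1.32 and 0.66, higher on Cy5 arrays, for a mean of 1.12 ± 0.08 (limma, adjusted p = 0.00109). The deubiquitinase gene Usp47 and vig, which encodes a component of the RNA interference complex, were at 0.69 ± 0.07 and 0.63 ± 0.08. CG3634 and CG32409 were at 0.73 ± 0.08 and 0.62 ± 0.06. The limma adjusted p of these 4 lay between 0.00265 and 0.00671. The vig gene was the only one of the 5 whose array 3 value, 0.43, was its lowest.

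Among the genes that passed with either spread, ana and otk had values from 1 dye orientation alone. ana (anachronism), whose glial product holds neuroblasts quiescent in the brain, was at 1.07 and 0.77 on the Cy5 arrays, with a mean of 0.92 ± 0.08 (limma, adjusted p = 0.00265). The transmembrane receptor gene otk (off-track) was at -1.36 and -1.15 on the Cy3 arrays, with a mean of -1.26 ± 0.07 (limma, adjusted p = 0.000898). For neither could the dye be averaged out.

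The lowest ratio of all was that of RpS21, a small ribosomal subunit protein gene, at -2.63, -2.52, -2.08 and -1.65. Extraction 1 was lower than extraction 2, all 4 values were below -1.6, and the mean of -2.22 ± 0.15 was 4.65-fold below the reference (limma, adjusted p = 0.00109). The other ribosomal genes did not share this value. Of 28 tested cytosolic ribosomal protein genes 3 fell, RpS21, RpL17 (-0.44 ± 0.08) and RpL34a (-0.35 ± 0.06), and the list's median was -0.04. The calls of RpL17 and RpL34a ended without array 2 (limma, adjusted p = 0.0692 and 0.104). Of these 28 genes, 19 had a higher mean on the Cy5 than on the Cy3 arrays, beside 1673 of 3651 tested genes, and for mitochondrial ribosomal protein genes the count was 42 of 54.

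CG18853 had -1.90, -1.30, -1.31 and -1.08, all below -1, for a mean of -1.40 ± 0.10 (limma, adjusted p = 0.00109). It lies on 2R beside the proteasome subunit gene Prosalpha1, which was at -0.89, -0.55, -0.48 and -0.34 with a mean of -0.57 ± 0.09 (limma, adjusted p = 0.0113). Both genes were lowest on array 1, and both Prosalpha1 probes agreed in sign and size. The Prosalpha1 call ended without array 2 (limma, adjusted p = 0.0586). The remaining proteasome genes gave 1 call among 26, Prosbeta2 at 0.28 ± 0.07, which ended without array 1, 2 or 3.

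The genes Had2, scyl and regucalcin were also lower. Had2, a hydroxy acid dehydrogenase gene, had -1.34, -1.10, -0.82 and -0.77, lower in extraction 1, for a mean of -1.01 ± 0.10 (limma, adjusted p = 0.00339). scyl (scylla), a hypoxia-responsive inhibitor of TOR signalling, was even across the arrays at -1.08, -0.88, -0.97 and -0.85, for a mean of -0.94 ± 0.06 (limma, adjusted p = 0.00109). regucalcin, a calcium-binding protein gene, had a mean of -0.83 ± 0.07 (limma, adjusted p = 0.00167). On array 1 that mean joined a probe at -1.63 and a second probe, with a value there alone, at 0.16.

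CG4250, CG6654 and CG12054 were at -0.98 ± 0.14, -0.87 ± 0.07 and -0.75 ± 0.06. Their limma adjusted p lay between 0.00153 and 0.00885, and the CG4250 call ended without array 2 (-1.16, adjusted p = 0.0561). Detoxification genes held 2 rises and 2 falls among 26, beside 479 calls among all 3924 tested genes. The rises were GstE1 and GstZ1 (0.30 ± 0.06), and the falls were the cytochrome P450 gene Cyp9c1 (-0.86 ± 0.07) and GstE8. GstE8 was at -1.21, -1.11 and -0.79 on arrays 1, 2 and 4, with a mean of -0.98 ± 0.10 (limma, adjusted p = 0.00278). Its values lay on the other side of 0 from those of GstE1. The metallothionein gene MtnA was at -0.38 ± 0.07 and the superoxide dismutase gene Sod2 at -0.25 ± 0.06. These calls and that of GstZ1 ended without array 2 (limma, adjusted p between 0.0780 and 0.152). The GstZ1 call also ended without array 1 or 3 and the Sod2 call without array 1 or 4 (limma, adjusted p between 0.0575 and 0.116). Among 4 immune recognition genes, Tep3, which encodes a thioester protein, fell by 0.69 ± 0.06 on the log2 scale and GNBP3, a glucan receptor gene, by 0.26 ± 0.06. The GNBP3 call ended without array 2 or 4 (limma, adjusted p = 0.139 and 0.0571).

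Of 10 tested ecdysone-responsive genes 9 lay above 0, beside 2056 of all 3924 tested genes. Such a lean was not particular to them, since 9 of 10 retinal determination genes and all 6 cone and pigment cell genes also lay above 0. Ecdysone is the steroid that times moulting and disc morphogenesis, and 3 of 10 tested response genes rose and none fell, with a median of 0.213. The nuclear receptor gene Hr3 had 0.77, 0.50, 0.61 and 0.56, and the ecdysone-inducible gene ImpE1 had 0.56, 0.33, 0.84 and 0.45. All 8 values were positive, and the means were 0.61 ± 0.06 and 0.54 ± 0.07 (limma, adjusted p = 0.003 and 0.00742). ImpE2 was at 0.25 ± 0.06, and its call ended without array 4 (limma, adjusted p = 0.0815). It had no value on array 1. Without that array its ratio stayed the same and its limma adjusted p was 0.0599, because the fit over all genes changed. The receptor subunit gene usp and the early gene br were at 0.05 and 0.29 and did not pass. EcR, Eip74EF, Eip75B, ftz-f1 and Eip93F were among the members not tested.

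Other regulators changed by less. grh, an epithelial transcription factor gene also used in neuroblasts, was at 0.59 ± 0.11, and brat, a growth suppressor of neuroblast lineages, at 0.37 ± 0.07 (limma, adjusted p = 0.0213 and 0.028). Both calls ended without array 2 (limma, adjusted p = 0.0761 and 0.0962). Of 9 cell death and stress genes, 2 fell, the MAP kinase kinase kinase gene wnd (-0.44 ± 0.06) and Gadd45 (-0.29 ± 0.07), and the initiator caspase gene Dronc was at -0.29 ± 0.08. Cell cycle genes gave 1 rise (Cdk2, 0.26 ± 0.06) and 1 fall (aurB, -0.40 ± 0.06) among 15. The Gadd45 and aurB calls ended without array 2 (limma, adjusted p = 0.253 and 0.0586) and the Cdk2 call without array 4 (0.05003). Cdk2 had no value on array 1. Without that array its ratio stayed the same and its limma adjusted p was 0.056.

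Housekeeping groups were close to the reference. Of 54 mitochondrial ribosomal protein genes, 2 rose and 3 fell. mRpL20 was at 0.38 ± 0.07, mRpL39 at -0.42 ± 0.06, mRpS2 at -0.37 ± 0.07 and mRpL2 at -0.27 ± 0.07. Of 51 respiratory chain and ATP synthase genes, COX7A rose (0.36 ± 0.06) and RFeSP fell (-0.32 ± 0.07). None of 14 vacuolar ATPase genes passed, and the small chaperone gene Hsp27 was the single call among 9 heat shock genes (0.28 ± 0.06). The calls of these 7 genes ended without array 2 (limma, adjusted p between 0.0589 and 0.115), and those of mRpS2, mRpL2 and Hsp27 also without others.

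**Figure D4:**
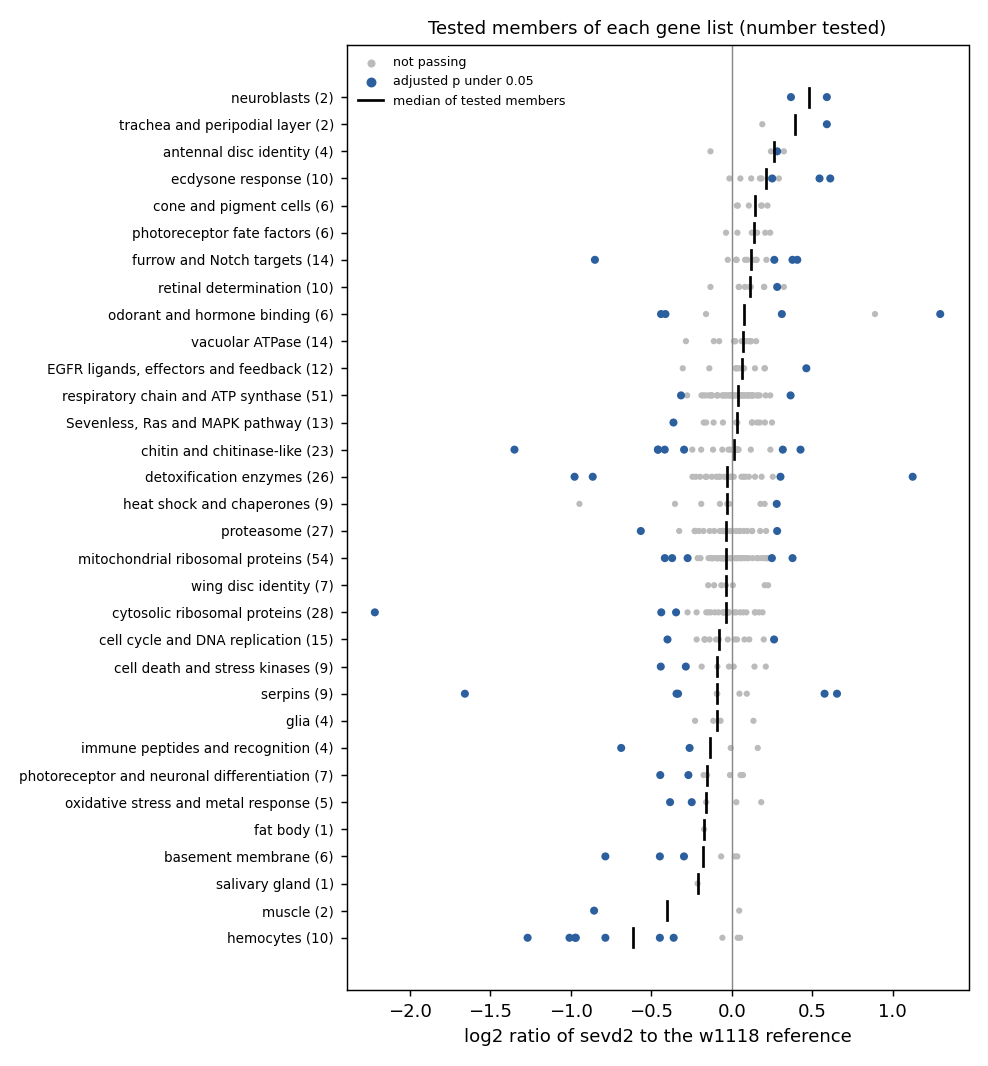
Log2 ratio of sevd2 to the reference for each tested member of the 32 gene lists, with called genes in blue and the list median as a bar; the number tested is in parentheses. The hemocyte list has the lowest median, -0.616, and most members of the larger lists lie within 0.5 of 0.

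Genes without a sevS11 value from both extractions numbered 338 of the 3924, and 39 of them were called (11.5%). They include Obp83g, gammaTry, Mlc2, Hr3, GstE8 and mRpL20. Also among them, and chosen after their values were seen, were Hey, a bHLH gene activated by Notch, and I-3, a protein phosphatase inhibitor gene. Hey was at -0.80 and -1.16 and I-3 at -0.95 and -1.10 on the Cy3 arrays, with no value on the Cy5 arrays. Their means were -0.98 ± 0.09 and -1.02 ± 0.07 (limma, adjusted p = 0.00265 and 0.00109). By chromosome, calls made up 15.5% of tested genes on 2L, 13.6% on 2R, 10.9% on 3L, 10.7% on 3R and 10.5% on the X.

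The size of a ratio moved with the dye. Of 427 called genes with values in both orientations, the mean of the Cy5 arrays was farther from 0 in 345 (80.8%), with a median size of 0.438 against 0.304. Over all 2648 tested genes with a value on all 4 arrays the share was 61.3%, with median sizes of 0.132 and 0.101. The standard deviation over probes was 0.410 and 0.325 on the Cy5 arrays and 0.278 and 0.251 on the Cy3 arrays. Extraction 1 was farther from 0 than extraction 2 in 351 of the 479 called genes, and the share over all tested genes was not taken. The Cy5 arrays correlated with each other across probes at 0.793 and the Cy3 arrays at 0.863, beside 0.83 and 0.78 for the dye-swapped pairs of extractions 1 and 2. Arrays unlike in both dye and extraction correlated at 0.717 (arrays 1 and 4) and 0.645 (arrays 2 and 3). The Cy5 minus Cy3 difference of a gene within a pair correlated at 0.689 between extractions, over 2648 genes. For genes with values from 1 dye orientation alone it is not averaged out. Genes and probes are not independent replicates in these values. The part of the dye in single ratios was not tested beyond these figures.

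**Figure D5:**
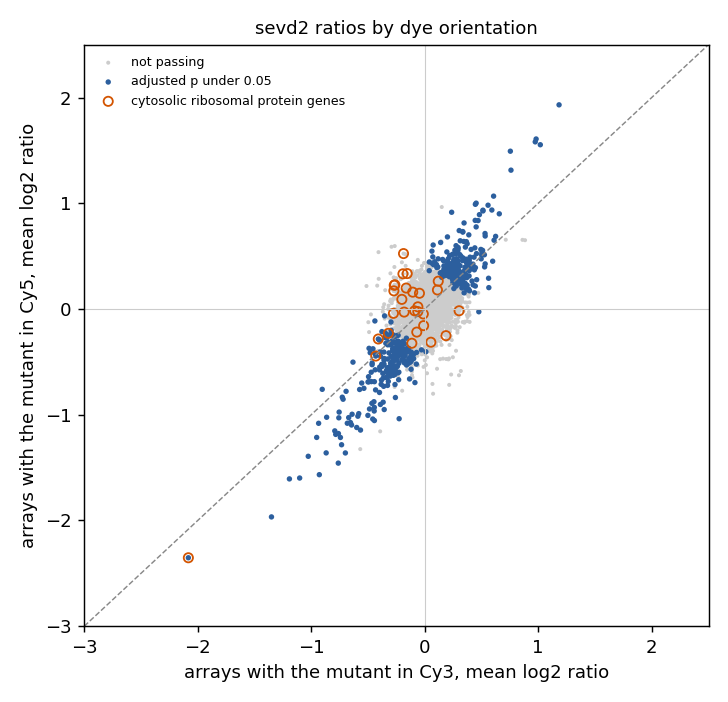
Mean log2 ratio of each gene on the arrays with the mutant in Cy3 (horizontal) and in Cy5 (vertical), with called genes in blue, cytosolic ribosomal protein genes circled and the dashed line marking equal values. Called genes lie mostly on the steep side of the line, farther from 0 with the mutant in Cy5.

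The 2 genotypes were compared directly for the 3586 genes with values from all 4 extractions, a contrast in which the pool cancels. The difference sevS11 minus sevd2 passed for 2 genes (0.0558%), PPO2 and PPO1. PPO2 was at 1.80 and 1.70 in the sevS11 extractions and PPO1 at 1.31 and 0.95, all above the reference, while every sevd2 array was below it. The differences were 2.72 ± 0.17 and 2.10 ± 0.17 (limma, adjusted p = 0.018 and 0.0429). The PPO1 call ended without array 3 of sevd2, at 1.97 (limma, adjusted p = 0.0537), and without the dye correction, at 2.03 (adjusted p = 0.145). He, at 1.56 and 0.97 in sevS11, differed by 2.27 and did not pass (limma, adjusted p = 0.0815), and lectin-28C, at 0.92 and 0.14, differed by 1.80 (adjusted p = 0.115).

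For the other genes with large sevd2 ratios the contrast gave no call. RpS21 was at -2.01 and -2.68 in sevS11, CG32207 at 2.29 and 2.48 and Syp at 1.35 and 1.25, on the same side of the shared pool as in sevd2. Others on the same side in both sevS11 extractions were CG18294, CG17681, GstE1, CG18853, CG12054, Spn47C and CG4250. By contrast Had2, CG4259 and regucalcin were on the other side in both. Idgf6 was at 0.29 and -0.19, scyl at 0.03 and 0.31, otk at -0.02 and 0.45 and ana at -0.30 and -0.21, near the pool or on the other side of it. The differences of these 4 were 1.40, 1.11, 1.48 and -1.18 (each limma, adjusted p = 0.0938). sev itself was at 1.85 and 4.43 in sevS11, a difference of 3.50 ± 0.77 (limma, adjusted p = 0.186).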

How the data were processed

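Per the labels, disc RNA was amplified and dye-labelled, and each sevd2 extraction was hybridised against the pool on a dye-swapped pair of arrays. The authors deposited 1 normalised value for each probe, read here as a log2 ratio because the submitters' processing notes name limma. How the background was corrected, how arrays were normalised and filtered, the log base and the direction are each not given in the sources used here. Ratios were not centred further.

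Of 16416 probes, 12533 were named by gene identifier and 120 by accession by matching to RefSeq's gene table for Release 6 plus ISO1 MT. Another 511 kept the platform's older symbol, 101 listed several genes, and 3151 were unlisted. Probes of a gene and then arrays of an extraction were averaged. R 4.3.3 with limma 3.58.1 (lmFit, eBayes) tested the mean of the 2 sevd2 extractions against 0, with prior degrees of freedom of 5.42 and Benjamini-Hochberg adjustment over all 3924 genes. The replicate is the extraction. Whether extractions hold separate animals is not in the labels, so the p-values may reflect technical spread alone. The sevS11 contrast used its 2 extractions, and the single unswapped sevS11 array was corrected by the mean dye effect of the swapped pairs. In 20 simulated data sets of 3924 genes with 200 changed, the sevd2 test recovered 97.3% of changes of 0.5 and 100% of changes of 1. Of its calls 10.2% were false, above the nominal 5%. Whether these shares hold for the measured arrays, with their dye effect, missing values and single reference pool, was not tested.

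The members, the 32 gene lists and the tests were chosen with earlier results of these data known. Genes named were sev, the 12 highest and 12 lowest called ratios with 1 sign on all 4 arrays, in each list up to 4 members with the lowest p, and genes called with the shared spread, with a few others named after their values were seen. Gene lists overlap in part. Alternatives covered the spread, array-level and dye-corrected fits, centring, scaling, quantile normalisation, single probes, thresholds and leaving out arrays.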

Additional observations from a re-analysis of the deposited data

Results flagged for a closer look

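The chitin-binding protein gene Gasp had an array 1 value of 1.17 in sevd2, and its gap to the nearest of the other 3 arrays was 0.872 of the range. Of 105 named genes with 4 values it was the only one past Dixon's 95% critical value, and chance alone gives such a value in about 1 in 20 groups. The difference between sevS11 and sevd2 passed the limma test for PPO1, at 2.10, and for PPO2, at 2.72. Probes that could not be tied to 1 gene were left out of the comparisons above. Of 1152 such probes with a value in both sevd2 extractions, 392 passed against the reference (limma, adjusted over all probes). In the same test 468 of 4139 probes tied to 1 gene passed, a smaller share. Why the shares differ was not tested.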

How the results depend on the processing

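The 479 calls became 17 with the spread shared with sevS11, 11 against a fold of 1.5, 897 in an array-level fit, 852 at an adjusted p under 0.1 and, chosen after seeing the data, 972 from the Cy3 arrays alone and 347 from the Cy5 arrays alone. The array-level fit used a correlation within extractions of -0.217. Arrays of the same RNA thus counted as separate replicates in it, and its count is not one over extractions. Leaving out an array gave between 116 and 457, and the 116 without array 2 were all among the 479. Other settings gave 390 to 559. With the replicate block and the shared spread the count was 92, and for sevS11 minus sevd2 the replicate block gave 85. Deviations of extractions with the same number in the 2 genotypes correlated at -0.065. Whether such extractions share more than a number was not tested. The 2 calls of sevS11 minus sevd2 became 1 without the dye correction, 27 with scaled arrays, and between 1 and 17 with an array left out. The causes were not tested. An array-level fit with a dye term was not run, because its correlation could not be estimated. No called ratio of a named gene changed sign under the settings run. Why probes lack a value on some arrays is not stated, so signal over background is not known here.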

Other observations

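Called genes over 0.5 in size that the naming rule did not reach numbered 76, with 27 higher and 49 lower, and those described here were chosen after their values were seen. Among the lower ones were genes of amino acid and glucose metabolism: Pepck1, the gluconeogenic carboxykinase gene (-0.86 ± 0.07), Oat, for ornithine aminotransferase (-0.85 ± 0.07), and Got1, for an aspartate aminotransferase (-0.60 ± 0.07). The muscle protein gene Mp20 was at -0.70 ± 0.08, on the same side as Mlc2. Glt, which encodes the basement membrane protein Glutactin, was at -0.68 ± 0.09. pst (pastrel), a virus resistance gene, was at -1.91 on array 1, -1.23 on array 3 and -0.93 on array 4, for a mean of -1.49 ± 0.17 (limma, adjusted p = 0.00518). phtm, an ecdysone biosynthesis gene of the prothoracic gland, was at -0.82 ± 0.08.

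Among the higher genes were GM130, a Golgi matrix protein gene (0.84 ± 0.06), Shrm, an organiser of apical actin (0.76 ± 0.07), and Sb (Stubble), a transmembrane protease gene needed for disc eversion (0.66 ± 0.06). For GM130, Shrm and Sb the limma adjusted p was 0.00136, 0.00265 and 0.00271, and none passed with the shared spread.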
